A study of Mus musculus with 6 samples.

Results

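The genes described here are 10 members of the lysosomal system, taken by symbol from the 32287 genes of the count matrices. They are the cathepsins Ctsb, Ctsd, Ctss, Ctsl and Ctsz, the lysozyme gene Lyz2, the lysosomal membrane genes Cd68 and Lamp1, the progranulin gene Grn, and Gpnmb. A wider list of 101 other lysosomal genes, from hydrolases to the proton pump, was followed beside them.

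Lysosomes are acidic organelles in which proteins, lipids and sugars that a cell has taken up or discarded are broken down. Cathepsins are the lysosomal proteases, a proton pump keeps the lumen acid, and glycoproteins of the membrane shield it from the enzymes inside. In the brain, microglia and the macrophages that sit along vessels are the main phagocytes and carry many lysosomes. Microglia near amyloid plaques take on a state known as disease-associated microglia (DAM), in which Cst7, Clec7a, Itgax and Lpl are typical transcripts.

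The data are single-cell RNA-seq of brain microvessel preparations from 6 male mice aged 12 months, with 1 library per mouse. The 3 wild-type (WT) mice were C57BL/6J. The other 3 carried the App ArcSwe transgene, a human amyloid precursor protein with the Arctic and Swedish mutations, and no group was treated. The ArcSwe model deposits amyloid beta both as plaques and in vessel walls, and the promoter of the transgene is not given in the sources used here. Vessel fragments were captured on beads against CD31, an endothelial surface protein, so microglia are cells that came along with the vessels.

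After filtering, 44112 cells remained of 49059, between 2379 and 13389 per mouse, with a median of 2922 to 5542 UMIs (unique molecular identifiers, a count of captured transcripts) per cell. Between 3 and 33 barcodes were shared by any pair of libraries. Microglia were split by the share of their counts from ribosomal protein genes, at 3% of counts, and are called high-ribosomal and low-ribosomal microglia. This is a limit on a range rather than a border between cell types, and 2218 of 6566 microglia lay between 2 and 4%. The high-ribosomal class held 720, 552 and 231 cells in WT replicates 1 to 3 and 311, 13 and 849 cells in ArcSwe replicates 1 to 3. Its cells had a median of 1190 UMIs in WT replicate 3 and 1055 in ArcSwe replicate 3, against 6356 to 8913 in the other 4 mice. The class carried microglial genes in every mouse, P2ry12 at 809 to 1706 counts per 1000000 UMIs (CPM) and Tmem119 at 424 to 965 CPM. Low-ribosomal microglia had them at 902 to 1363 and 699 to 1067 CPM, so these genes do not tell the classes apart. Low-ribosomal cells had a median of 1091 to 1934.5 UMIs and a median mitochondrial share of 1.472 to 3.482% per mouse. At clustering resolution 2, 2288 microglia of both classes fell into a cluster left unnamed for its low UMIs. The paper treated a group of microglia, poor in ribosomal and rich in mitochondrial transcripts, as low-quality cells and removed it. That step was not repeated here, so low-ribosomal microglia may include such cells. Levels below are CPM of the summed UMIs of a class in a mouse.

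Promoters of the members were searched for CACGTG, the core of the element bound by the lysosomal regulator TFEB, which reads the same on both strands. The windows ran from 250 bases before to 50 bases after the RefSeq start (GRCm38.p6). Of the 9 members with a window, 3 held the motif, Lamp1 with 4 matches, Ctsd with 2 and Ctsl with 1. Across all 32851 promoters 7.15% held it and 0.0244% held 4 or more, and of the 78 wider-list genes with a window 23 did (29.5%). The matching stretches are printed because these 3 genes stand at different places in the results that follow, and a match is a description of letters only. Capitals mark the motif, read 5′ to 3′ on the strand of the gene, at chr8:13159088-13159160 (plus) for Lamp1, chr7:142388055-142388077 and chr7:142387908-142387937 (minus) for Ctsd, and chr13:64370739-64370768 (minus) for Ctsl.
Lamp1: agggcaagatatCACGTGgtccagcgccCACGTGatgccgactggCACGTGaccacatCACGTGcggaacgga
Ctsd, distal: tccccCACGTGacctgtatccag
Ctsd, proximal: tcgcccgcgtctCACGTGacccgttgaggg
Ctsl: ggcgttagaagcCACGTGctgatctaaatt
The Lamp1 matches began at positions -61, -45, -28 and -15 from the start. Those of Ctsd began at -245 and -98, and that of Ctsl at -236. The gene annotation of GRCm38 spans chr7:142375911-142388038 for Ctsd and chr13:64359337-64370890 for Ctsl. The proximal Ctsd match and the Ctsl match lie within these spans, so they precede the RefSeq start but not the annotated gene.

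In high-ribosomal microglia the lysosomal members were higher in ArcSwe than in WT mice. Of the 9 members that could be tested 5 rose, namely Ctsb, Cd68, Grn, Ctsz and Ctsl, each by about the same factor, with log2 fold changes of 0.94 to 1.22. Ctsd, Ctss and Lamp1 were also above the WT range in all ArcSwe mice but did not pass the test, and Lyz2 overlapped between the genotypes. Over all genes tested, 8.18% had every ArcSwe mouse above every WT mouse, and 47.4% had a positive log2 fold change. Together the 10 members took 1.48, 1.42 and 1.78% of the class's UMIs in the WT mice and 2.53, 2.83 and 2.54% in the ArcSwe mice. Among all 9854 genes tested 3.28% were called higher (edgeR adjusted p under 0.05) and 0.071% lower. The median log2 fold change was 0.96 over the tested members and -0.02 over all genes.

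Among the cysteine proteases, Ctsb, which encodes a broad-acting endopeptidase and exopeptidase, stood at 1167, 1117 and 1365 CPM in the WT mice and at 2506, 2605 and 2771 CPM in the ArcSwe mice. The lowest ArcSwe value was well above the highest WT value, and the log2 fold change was 1.22 ± 0.21 (SE; edgeR adjusted p = 0.0141). Ctsz, a carboxypeptidase, was at 1558, 1426 and 1598 CPM in WT and 2521, 3039 and 2658 CPM in ArcSwe mice (log2 fold change 0.94 ± 0.21, edgeR adjusted p = 0.0423). Ctsl, an endopeptidase of wide specificity, was measured at 1164, 1148 and 1318 CPM against 2182, 1878 and 2431 CPM (log2 fold change 0.96 ± 0.23, edgeR adjusted p = 0.0491), a call that was lost at clustering resolution 2 (edgeR adjusted p = 0.0621). These 2 genes were likewise separated between the genotypes. Ctss, the protease that trims the invariant chain in antigen presentation, stood closer together, at 4201, 4095 and 3959 CPM in WT and 5994, 5825 and 4726 CPM in ArcSwe mice. Its groups did not overlap, yet the log2 fold change of 0.53 ± 0.24 did not pass (edgeR adjusted p = 0.307).

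Ctsd encodes the main aspartic protease of the lysosome. It was at 4742, 4597 and 6131 CPM in the WT mice and 8416, 10750 and 8956 CPM in the ArcSwe mice. All ArcSwe mice were above all WT mice, and the log2 fold change of 0.97 ± 0.24 lay just outside the threshold (edgeR adjusted p = 0.0600). Ctsd was called by DESeq2 (adjusted p = 0.000746), with the stricter cell filter (0.0197), with the ribosomal split made by cluster (0.0170), with a ribosomal limit of 5% (0.0142) and without WT replicate 3 (0.00295), the last 4 by edgeR. It was not called when any other single mouse was left out.

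Of the membrane genes, Cd68, a macrophage relative of the LAMP proteins, was at 367, 341 and 345 CPM in WT and 606, 889 and 667 CPM in ArcSwe mice. It rose by 1.11 ± 0.21 on the log2 scale (edgeR adjusted p = 0.0175), with no overlap. Lamp1, an abundant glycoprotein of the lysosomal membrane in most cells, differed less, at 791, 709.6 and 667 CPM against 959.6, 969 and 841 CPM. Every ArcSwe mouse was above every WT mouse, but the log2 fold change of 0.45 ± 0.21 did not pass (edgeR adjusted p = 0.330). Grn, whose product progranulin is cut into granulins in the lysosome, was at 518.5, 492.5 and 689.8 CPM in WT and 954.7, 1030 and 1012 CPM in ArcSwe mice (log2 fold change 0.94 ± 0.20, edgeR adjusted p = 0.0329). Its groups were also apart.

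Lyz2, which encodes a lysozyme of myeloid cells, differed from the other members in 1 WT mouse. It was at 241.6, 233.4 and 1687 CPM in the WT mice and 1134, 1262 and 1298 CPM in the ArcSwe mice, so WT replicate 3 was the highest of all 6. The log2 fold change was 0.99 ± 0.61 (edgeR adjusted p = 0.478). In WT replicate 3, 668 of the 817 Lyz2 UMIs came from 6 of 231 cells and 459 from 2 cells, whereas in WT replicate 1 the top 6 cells held 91 of 1042. Without WT replicate 3 the log2 fold change was 2.41 (edgeR adjusted p = 8.25e-06), and with no filter on low counts Lyz2 was called at 1.01 (edgeR adjusted p = 0.00974).

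Gpnmb, a transmembrane glycoprotein of lipid-laden phagocytes, was too low to test. No UMI was found in WT replicates 1 and 2 or in ArcSwe replicate 2, which allows a share of cells with a UMI of up to 0.417% of 720, 0.543% of 552 and 23.1% of 13 cells. WT replicate 3 had 39 UMIs, all in 2 cells, while ArcSwe replicates 1 and 3 had 13 and 7, in 3 cells each. These limits cover counting error only.

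**Figure D1:**
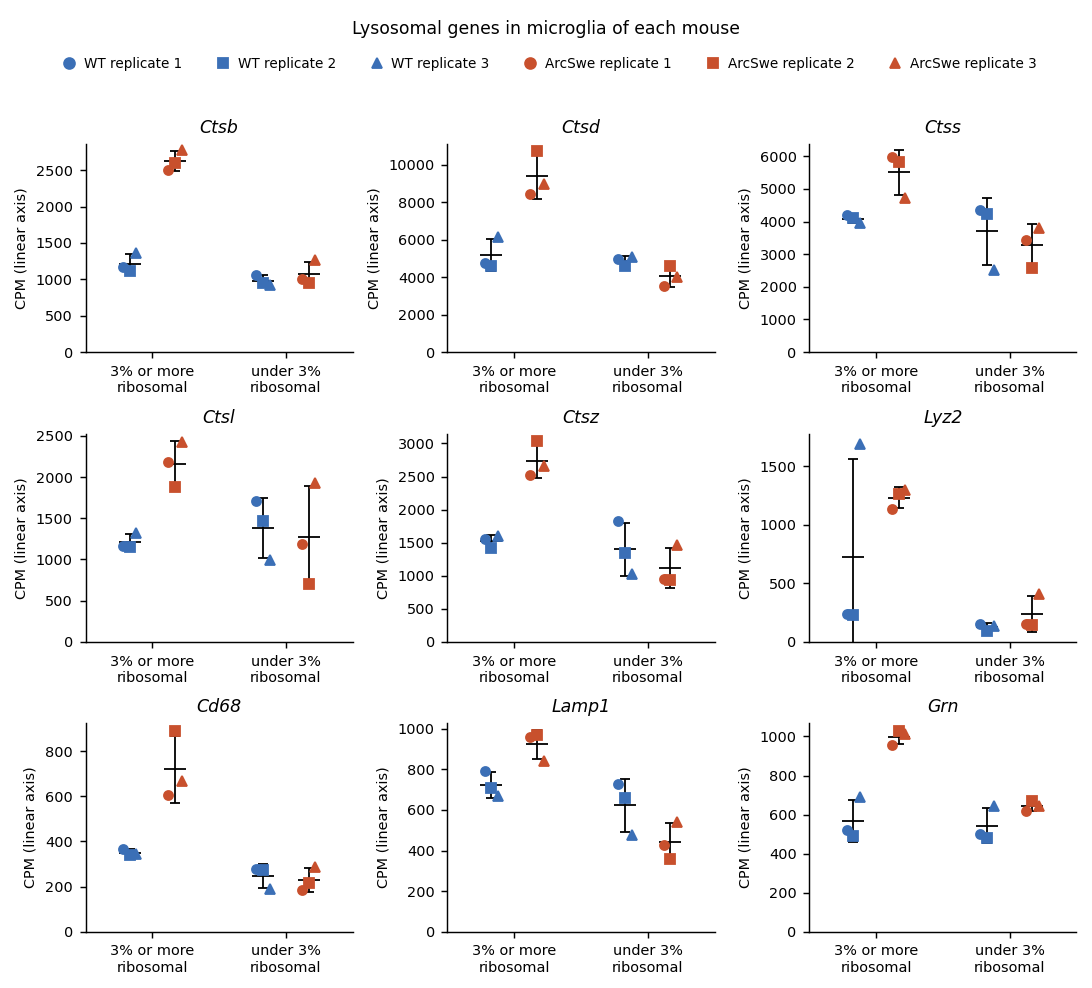
Level of each member in CPM (linear axes from 0) in each mouse, for microglia with 3% or more and under 3% of counts from ribosomal genes, with WT and ArcSwe in separate colours, a marker shape per replicate number, and bars for the mean ± SD. In the class with 3% or more, all 3 ArcSwe mice lie above all 3 WT mice for 8 members, and for Lyz2 WT replicate 3 lies at 1687 CPM.

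The calls changed when single mice were left out, while the direction did not. Without WT replicate 1, WT replicate 2, ArcSwe replicate 1 or ArcSwe replicate 3 none of the members was called, and the genes called over the whole transcriptome fell from 330 to 60, 95, 183 and 81. Without ArcSwe replicate 2, which had 13 cells, Ctsb alone was called, and without WT replicate 3, 7 members were called among 1209 genes. The 9 tested members had positive log2 fold changes in each of these fits. Summed endothelial markers in this class were at 103 to 692 CPM in WT and 131 to 1329 CPM in ArcSwe mice, highest in the replicates numbered 3. The median mitochondrial share of counts per cell was 0.576, 0.62 and 3.12% in the WT mice and 1.16, 2.16 and 3.27% in the ArcSwe mice. The part of both in the result was not tested.

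In low-ribosomal microglia no member passed the test, and the groups overlapped for all 9 that were tested. Over all 7660 genes 0.144% were called, and the groups were apart for 6.29% with ArcSwe above and 11.4% with ArcSwe below WT. Of the tested members 3 had positive and 6 negative log2 fold changes, where 46.9% of all genes were positive, with a median of -0.04 against -0.03 over all genes. Before adjustment 1 member, Lyz2, had a p under 0.05 and was higher, as were 5.89% of all genes, and DESeq2 called none. With no filter on low counts Lyz2 was called. Ctsb stood at 1062, 956 and 927 CPM in the WT mice and 1003, 944 and 1264 CPM in the ArcSwe mice, a log2 fold change of 0.21 ± 0.23. Ctsd was at 4948, 4605 and 5095 CPM against 3514, 4615 and 3988 CPM (log2 fold change -0.18 ± 0.25). For Cd68 the values were 279, 275.5 and 187 CPM in WT and 186, 216 and 288 CPM in ArcSwe mice, a log2 fold change of -0.01 ± 0.25. All 3 genes thus interleave between genotypes where the high-ribosomal class kept them apart. Lyz2 was at 156, 90.3 and 132 CPM against 155, 145 and 411 CPM, so its log2 fold change of 1.05 ± 0.36 leaned on ArcSwe replicate 3 (edgeR adjusted p = 0.393), and without that mouse it was 0.34. Leaving out both replicates numbered 3, an alternative chosen after seeing the data, Ctsl, Ctss, Ctsz and Lamp1 were called lower in ArcSwe mice, with log2 fold changes of -0.70, -0.50, -0.73 and -0.79. The summed microglial markers of this class were at 25730, 24180 and 17300 CPM in the WT mice and 15690, 15560 and 18980 CPM in the ArcSwe mice, and 0 of 12 markers had a higher mean in ArcSwe mice. Their part in the result, and that of the low depth of these cells, was not tested. With the stricter cell filter, too, no member was called.

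The difference between the classes was tested directly, as the genotype effect in low-ribosomal minus that in high-ribosomal microglia with the mouse as a block. It was called for 4 members, all with a smaller effect in the low-ribosomal class, while 0.297% of 9755 genes were called. The log2 difference was -1.18 ± 0.24 for Ctsd (edgeR adjusted p = 0.0244) and -1.11 ± 0.23 for Cd68 (edgeR adjusted p = 0.0253). It was -1.03 ± 0.22 for Ctsb (edgeR adjusted p = 0.0303) and -1.17 ± 0.25 for Ctsz (edgeR adjusted p = 0.0309). Ctsl, Lamp1, Grn, Ctss and Lyz2 had differences of -1.04, -0.84, -0.61, -0.61 and -0.49 that did not pass, though Ctsl was called with no filter on low counts. None of the members was called without WT replicate 1, WT replicate 2 or ArcSwe replicate 1, while 2 were called without ArcSwe replicate 2, 6 without WT replicate 3 and 7 without ArcSwe replicate 3. Different clusters held the high-ribosomal class in different mice. In WT replicates 1 and 2 a cluster led by Cx3cr1, Rgs10 and C1qc held 673 and 517 cells, in WT replicate 3 a cluster led by Csmd3 held 153, and in ArcSwe replicate 3 a cluster led by Ptpro and Creb5 held 550. A cluster led by Cst7 and Cxcl10 held 3, 2 and 12 cells in WT replicates 1 to 3 and 102, 4 and 224 in ArcSwe replicates 1 to 3. Its median ribosomal share was 7.80%, and the low-ribosomal class held 19, 2 and 125 of its ArcSwe cells. Of its WT cells that class held 1 in replicate 1 and 10 in replicate 3. The parts of this uneven mix and of the depth of the classes in the called differences were not tested.

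**Figure D2:**
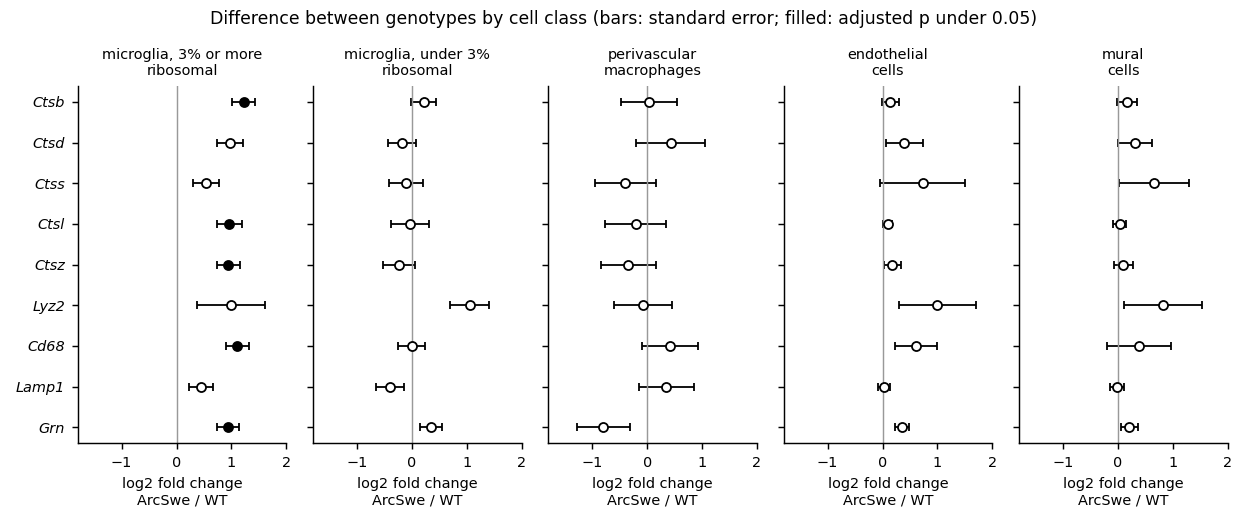
Log2 fold change of ArcSwe over WT for each tested member in each cell class, with bars for the standard error, 0 marked by a line, and filled points for an adjusted p under 0.05. The 9 members lie to the right of 0 in high-ribosomal microglia, from 0.45 for Lamp1 to 1.22 for Ctsb, and around 0 in low-ribosomal microglia apart from Lyz2 at 1.05.

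Among the wider lysosomal list, 4 of 95 genes tested rose in high-ribosomal microglia and 0 fell, a share near the 3.28% called higher over all genes. With 1 mouse left out between 1 and 19 were called, 1 without WT replicate 1, WT replicate 2 or ArcSwe replicate 3, 2 without ArcSwe replicate 1 and 19 without WT replicate 3. Cst7, an inhibitor of cathepsins and a DAM transcript, was at 5.33, 7.09 and 35.1 CPM in WT and 574, 343 and 768 CPM in ArcSwe mice (log2 fold change 5.98 ± 0.58, edgeR adjusted p = 0.00106). Npc2, which passes cholesterol out of the lysosome, was at 585, 549 and 638 CPM against 1236, 1343 and 1210 CPM (1.20 ± 0.20, edgeR adjusted p = 0.0100). Cd63, a tetraspanin of late endosomes, was at 411, 367.5 and 624 CPM against 863.5, 1030 and 1208 CPM (1.28 ± 0.24, edgeR adjusted p = 0.0170). Gusb, the glycosidase beta-glucuronidase, was at 143, 158 and 217 CPM against 249, 363.5 and 279 CPM (0.87 ± 0.20, edgeR adjusted p = 0.0455). The Gusb call was lost by DESeq2 (adjusted p = 0.0588), with RLE factors (edgeR adjusted p = 0.0608) and without any 1 mouse other than WT replicate 3 (edgeR adjusted p = 0.101 to 0.352). In each of these genes the lowest ArcSwe value exceeded the highest WT value. The list as a whole had a median of 0.18 on the log2 scale, against 0.96 for the members. Of the 20 glycosidases and sulfatases 17 had positive values and 1 was called, of 12 lipid-handling genes 7 and 1, and of 19 membrane genes 11 and 1, where 47.4% of all genes were positive and 3.28% were called higher. No gene was called among 15 tested subunits of the proton pump, 6 sorting genes and 11 regulators of transcription and signalling, with median log2 fold changes of 0.04, 0.43 and -0.07. Naglu, a glycosidase of heparan sulfate breakdown, had a log2 fold change of 0.85 ± 0.21 that did not pass (edgeR adjusted p = 0.0624).

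In low-ribosomal microglia 1 of 92 genes of the wider list was called, again Cst7, where 0.144% of all genes were. No gene of the list was called by DESeq2, with the stricter cell filter, with the split by cluster, with the limit of 5%, or without WT replicate 1, WT replicate 2 or ArcSwe replicate 3. It had 1, 0 and 9 UMIs in the WT mice and 21, 14 and 160 in the ArcSwe mice, with a log2 fold change of 4.22 ± 0.74 that depends on the prior count at such low levels (edgeR adjusted p = 0.0444). The membrane gene Scarb2, which sorts glucocerebrosidase to the lysosome, and the proton pump genes Atp6v1e1, Atp6v0d1 and Atp6v1h had log2 fold changes of 0.62, 0.57, 0.51 and 0.47. Their groups did not overlap, as for 6.29% of all genes in this direction, and their edgeR adjusted p-values lay between 0.406 and 0.460.

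Within high-ribosomal microglia the levels were then compared between cells with and without DAM transcripts, after each cell was thinned to 1000 UMIs. A cell counted as carrying such a transcript when it held at least 1 UMI of Cst7, Clec7a, Itgax or Lpl. That was 19 of 712 cells in WT replicate 1 (2.67%, exact 95% interval 1.61 to 4.14%), 7 of 552 in WT replicate 2 (1.27%, 0.511 to 2.60%) and 12 of 148 in WT replicate 3 (8.11%, 4.26 to 13.7%). It was 100 of 308 in ArcSwe replicate 1 (32.5%, 27.3 to 38.0%), 4 of 13 in ArcSwe replicate 2 (30.8%, 9.09 to 61.4%) and 174 of 457 in ArcSwe replicate 3 (38.1%, 33.6 to 42.7%). Thinning left out 83 cells of WT replicate 3, 392 of ArcSwe replicate 3 and at most 8 of any other mouse. Before thinning, 66 of 720 and 50 of 552 cells of WT replicates 1 and 2 carried such a transcript.

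Only ArcSwe replicates 1 and 3 had at least 20 such cells, so these 2 mice give values and there is no test. All 9 members with counts were higher in the cells with a DAM transcript in both mice. Ctsb was at 4177 CPM with and 1515 CPM without in ArcSwe replicate 1, and at 3807 and 1543 CPM in ArcSwe replicate 3, a ratio of 2.76 and 2.47. For Lyz2 the ratios were 4.34 and 3.21, for Ctsd 3.05 and 2.20, for Cd68 2.61 and 2.31, and for Ctsz 2.59 and 1.99. Grn had ratios of 2.20 and 1.78 and Ctsl of 1.72 and 2.08, whereas those of Lamp1 (1.54 and 1.56) and Ctss (1.52 and 1.42) were smallest. The cells without a DAM transcript were set beside the whole class in the WT mice, which was not thinned. After thinning of the ArcSwe cells, Ctsb, Ctsl and Cd68 were above the WT range in both ArcSwe mice, Ctsb at 1515 and 1543 CPM. Ctsd (4796 and 5070 CPM), Grn (665 and 647 CPM) and Lyz2 (494.5 and 580.0 CPM) lay within it in both. For Lyz2 the upper end of that range was WT replicate 3, where a few cells held 668 of the 817 UMIs. Both Lyz2 values were above WT replicates 1 and 2. Ctss and Ctsz were above the WT range in 1 mouse and within it in the other, and Lamp1 was within it in 1 mouse and below it in the other. With all UMIs kept in both genotypes, Ctsb and Cd68 were not above the WT range in either ArcSwe mouse. Cells without a DAM transcript in ArcSwe replicates 1 and 3 then had Ctsb at 1173 and 1089 CPM and Cd68 at 349 and 289 CPM. Ctsl, at 1282 and 1561 CPM, was above the range in ArcSwe replicate 3 only.

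The same held between clusters, which were built without the 10 members or the wider list. In the cluster led by Cst7, Cxcl10, Ifnb1, Tnf and Spp1, Ctsb was at 3751 CPM in ArcSwe replicate 1 (102 cells) and 3720 CPM in ArcSwe replicate 3 (224 cells). In the cluster led by Cx3cr1 it was at 1150, 1095 and 1121 CPM in the WT mice, 1221 CPM in ArcSwe replicate 1 (155 cells) and 1665 CPM in ArcSwe replicate 3 (31 cells). Ctsd was at 12040 and 11620 CPM in the former cluster, and at 4406 and 5581 CPM in the latter in these 2 ArcSwe mice, where the WT mice had 4737, 4575 and 5029 CPM. In the cluster led by Ptpro and Creb5, Ctsb was at 1347 and 1060 CPM in WT replicates 1 and 2. It was at 1213 CPM in ArcSwe replicate 1 (20 cells) and 970 CPM in ArcSwe replicate 3 (550 cells). Ctsd was there at 3892 and 3020 CPM in these WT mice and 3303 and 3946 CPM in these ArcSwe mice. The values are a description, since the clusters differ in many genes.

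**Figure D3:**
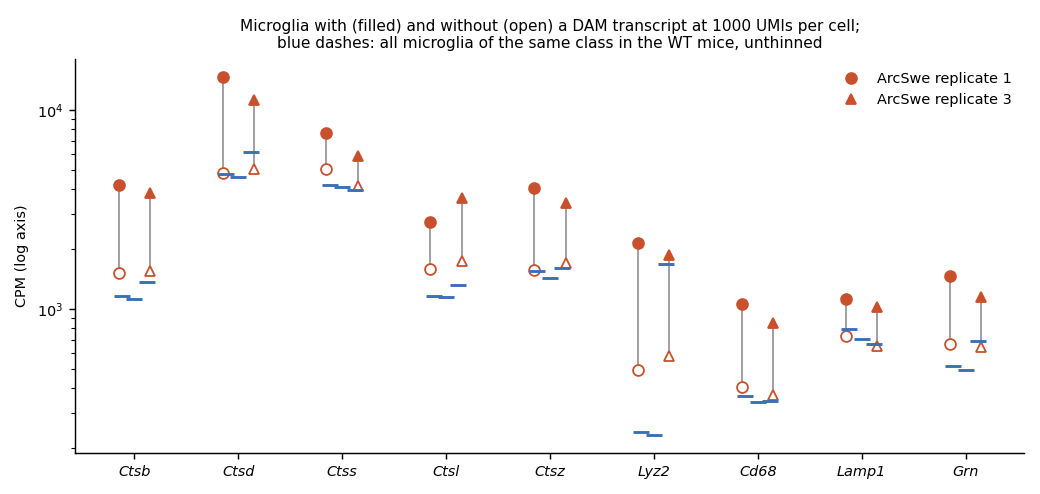
CPM (log axis) of 9 members in high-ribosomal microglia of ArcSwe replicates 1 and 3, in cells with (filled) and without (open) a DAM transcript at 1000 UMIs per cell. Blue dashes are the WT mice, whole class and unthinned. Each filled point lies above the open point of its mouse, by 1.42 to 4.34 times.

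Perivascular macrophages, resident phagocytes of the vessel wall, were few, with 6 and 12 cells in WT replicates 2 and 3 and 7 and 15 in ArcSwe replicates 1 and 3. WT replicate 1 had none and ArcSwe replicate 2 had 1, so both were left out. They were named from a marker list that includes Mrc1 and F13a1. These stood at 1269 to 2146 CPM and 717 to 1663 CPM, against at most 12.3 and 1.05 CPM in microglia. The microglial genes P2ry12 and Tmem119 were at 45.2 to 347 and 0.0 to 55.4 CPM in them. Summed microglial markers were at 14130 to 20170 CPM in WT and 15670 to 20910 CPM in ArcSwe mice. Lyz2 was at 8479 and 10920 CPM in WT and 13080 and 6369 CPM in ArcSwe mice, and Ctsb at 2272 and 2904 CPM against 2593 and 3094 CPM. Both genes overlapped between genotypes. Of the 9 tested members none was called (edgeR adjusted p = 0.945 to 0.982), and 0.0% of 387 genes were. Without adjustment 14 genes (3.62%) had a p under 0.05, and DESeq2 called 1. Grn was lower in both ArcSwe mice, at 1053 and 852 CPM against 662 and 519 CPM, with a log2 fold change of -0.80 ± 0.48, and 11.6% of the genes had groups apart in that direction. Lamp1 was higher in both ArcSwe mice, at 775.9 and 978.5 CPM against 1269 and 1152 CPM, where 20.2% of the genes had groups apart (log2 fold change 0.35 ± 0.50). Gpnmb had no UMI in any of the 4 mice. With so few cells a difference of the size seen in microglia was not detectable for most members, as the standard errors of 0.48 to 0.63 show.

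In endothelial cells, which line the vessels, and in mural cells, the pericytes and smooth muscle cells around them, no member was called. The endothelial class excluded cells in which Cx3cr1 or Aif1 was detected, 1940 of 13458 in WT and 3584 of 16509 in ArcSwe mice. All 9 tested members had positive log2 fold changes in endothelial cells, from 0.03 for Lamp1 to 1.00 for Lyz2, where 50.2% of all genes did. The groups were apart for 1 member, Ctsl, as for 4.1% of all genes with ArcSwe above WT, though its log2 fold change was only 0.09 ± 0.08 (edgeR adjusted p = 0.991). Without ArcSwe replicate 3 only 4 of the 9 members had a positive log2 fold change. Grn was at 53.1, 48.2 and 73.5 CPM in WT and 69.3, 68.5 and 82.2 CPM in ArcSwe mice, overlapping at WT replicate 3 (log2 fold change 0.35 ± 0.14, edgeR adjusted p = 0.991). It was the 1 member whose unadjusted p was under 0.05, where 2.46% of all genes were so and higher. In mural cells 8 of 9 had positive values, as had 49.3% of all genes, and 1 of 9 without ArcSwe replicate 3. Over all genes edgeR called 0.0% of 13635 in endothelial and of 10824 in mural cells, with 582 (4.27%) and 421 (3.89%) at an unadjusted p under 0.05 and 17 and 0 by DESeq2. With no filter on low counts Ctss was called in mural cells, a class that kept cells with Cx3cr1 or Aif1. Summed microglial markers were there at 119 to 503 CPM in WT and 83.9 to 748.5 CPM in ArcSwe mice. Of the markers, 12 of 12 had a higher mean in ArcSwe mice. As a percentage of the level in high-ribosomal microglia, mural Ctss exceeded every microglial marker in 0 of 6 mice. The part of microglial transcripts in the mural values was not tested. The difference in the genotype effect between high-ribosomal microglia and endothelial cells was not called for any member, where 0.407% of 13526 genes were called. For Ctsb it was 1.00 ± 0.27 on the log2 scale (edgeR adjusted p = 0.133), and 0.93 to 1.10 with 1 mouse left out.

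Microglial transcripts themselves were found in the endothelial class and varied with the library. Summed microglial markers were at 77.6 to 415 CPM in WT and 60.1 to 694 CPM in ArcSwe endothelial cells, highest in ArcSwe replicate 3. To set the members against this, each level in endothelial cells was expressed as a percentage of the level in high-ribosomal microglia of the same mouse, beside 10 microglial markers. The markers had medians of 0.344, 0.439 and 2.38% in the WT mice and 1.36, 0.396 and 4.14% in the ArcSwe mice. Lamp1 was at 32.8 to 43.1% and exceeded every marker in 6 of 6 mice. Ctsl (11.2 to 21.7%), Grn (6.65 to 10.7%), Ctsb (4.23 to 10.7%) and Ctsz (3.60 to 8.03%) did so in 5 of 6, all but ArcSwe replicate 3. Ctsd exceeded every marker in 4 mice, and Lyz2 and Cd68 in 2. Ctss, at 0.240 to 2.28%, did so in none, and its ratio to the marker median was 0.551 to 1.02. In endothelial cells Ctss was at 13.04, 18.3 and 76.0 CPM in WT and 47.3, 13.95 and 108 CPM in ArcSwe mice, and its 3 highest values were in the 3 mice with the highest marker sums.

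**Figure D4:**
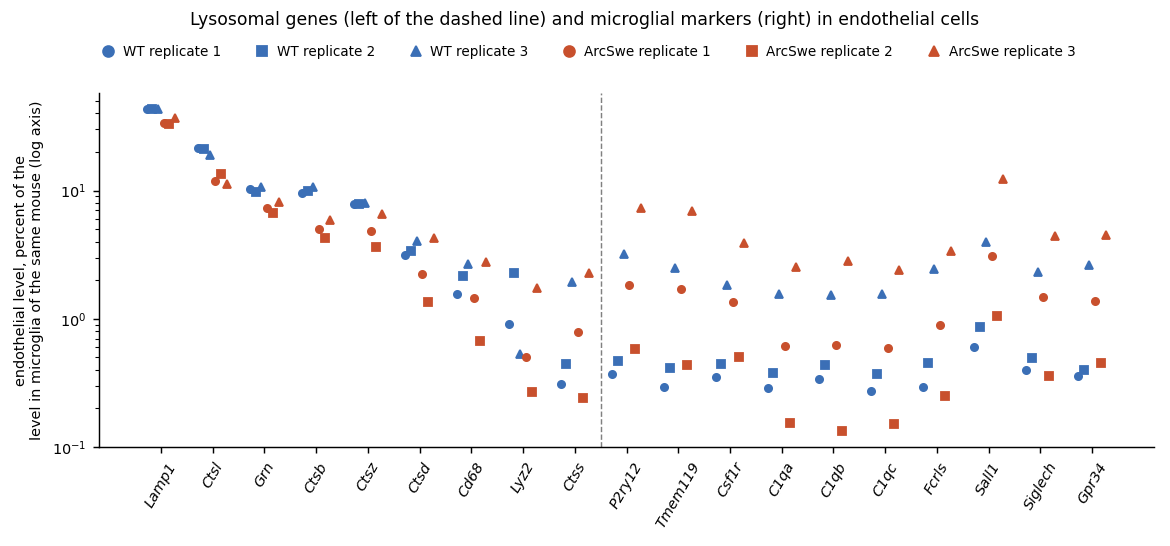
Level in endothelial cells as a percentage of the level in high-ribosomal microglia of the same mouse (log axis), for 9 members left of the dashed line and 10 microglial markers right of it, 1 point per mouse. Lamp1 lies at 32.8 to 43.1% in every mouse, while Ctss lies among the markers.

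Among the clusters of vascular cells Ctsl varied most visibly, and the clusters named here were chosen after their values were seen. A mural cluster of 511 cells led by Vtn, Grm7 and Abcc9 had Ctsl at 708 ± 239 CPM (SD, n = 6), between 463 and 1157 CPM. Dcn, which the paper lists as a fibroblast marker, was also among its leading genes. At clustering resolution 2 there was a mural cluster of 359 cells led by Vtn and Atp13a5. A mixed cluster of 147 cells was led there by Dcn and Coch. The part of fibroblast-like cells in this Ctsl level was not tested. The mural cluster led by Tagln and Acta2, genes of contractile smooth muscle, had 182 ± 20 CPM, from 149.5 to 205 CPM. The endothelial cluster led by Plvap and Esm1, markers of fenestrated endothelium, had Ctsl at 480.2 ± 63 CPM and Grn at 145 ± 28 CPM (SD, n = 6).

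Across the 5 classes, over both genotypes, the members fell into a common arrangement with the 3 phagocyte classes above the vascular ones, apart from Gpnmb, which had no UMI in perivascular macrophages. Lyz2, Ctsb, Cd68 and Lamp1 had their highest mean level in perivascular macrophages, and Ctsd, Ctss, Ctsl, Ctsz, Grn and Gpnmb in high-ribosomal microglia. For Grn these classes were not ordered alike in the genotypes, since macrophages were above high-ribosomal microglia in both WT mice with macrophages and below them in both such ArcSwe mice, a mean difference of 0.022 ± 0.91 on the log2(CPM + 1) scale (SD, n = 4). Lyz2 was higher in perivascular macrophages than in high-ribosomal microglia of the same mouse by 3.42 ± 1.28 on the log2(CPM + 1) scale (SD, n = 4), in 4 of 4 mice. Ctsb fell by 3.01 ± 0.20 on that scale from low-ribosomal microglia to endothelial cells (SD, n = 6), in 6 of 6 mice, and Grn by 3.09 ± 0.20 from low-ribosomal microglia to mural cells. Lamp1 was exceptional in that low-ribosomal microglia were above mural cells by only 0.38 ± 0.36, in 5 of 6 mice. Endothelial and mural cells were near each other for Ctss, Ctsz and Ctsb, with differences of 0.0015 ± 0.31, 0.0047 ± 0.08 and 0.06 ± 0.10. Of 40 comparisons between neighbouring classes 11 reached 0.03125, the smallest p that the exact two-sided sign-flip permutation test can give with 6 mice, and with 4 mice it is 0.125. None passed after Benjamini-Hochberg adjustment over the 40, the lowest adjusted p of the exact test being 0.114. With these smallest p-values none could have fallen under 0.05 after adjustment, whatever the levels. The lack of calls therefore says nothing about the order of the classes. The 10 members together took 1.42 to 2.83% of UMIs in high-ribosomal microglia, 1.12 to 1.56% in low-ribosomal microglia, 1.66 to 2.51% in perivascular macrophages, 0.101 to 0.153% in endothelial cells and 0.105 to 0.156% in mural cells.

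**Figure D5:**
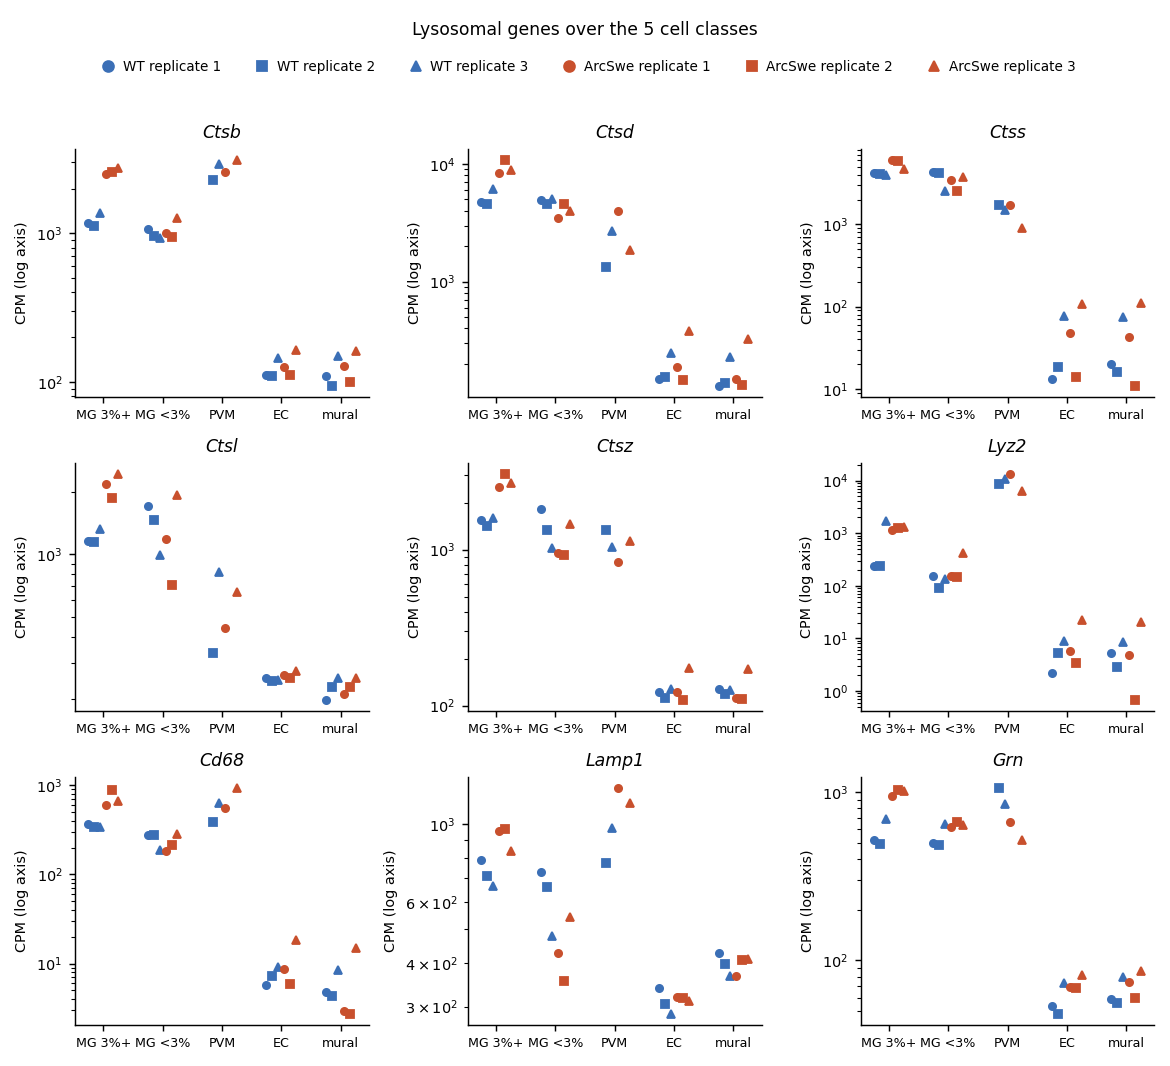
CPM (log axis) of the members in each mouse by cell class. MG 3%+ and MG <3% are high-ribosomal and low-ribosomal microglia, PVM perivascular macrophages (4 mice), EC endothelial cells. Lyz2 reaches 6369 to 13080 CPM in PVM, and Lamp1 stays at 287 to 340 CPM in EC.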

How the data were processed

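The authors deposited raw UMI counts per gene and cell for 6 libraries (Cell Ranger 7.0.0, mm10 with Clec7a and human NOTCH3 sequences added), before their own quality filters. The study's limits on cells were applied, 500 to 4500 genes and mitochondrial counts below 10%. Cells were clustered without the 10 members and the wider list (2000 variable genes, 30 components, 20 neighbours, Leiden resolution 1, leidenalg 0.10.2) and named from marker genes. No doublet caller was run, and 1981 cells of clusters with markers of several types and 644 unnamed cells were left out.

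UMIs were summed per mouse and class, for mice with at least 5 cells. Ribosomal, mitochondrial, pseudogene and Rik genes were removed, and CPM was computed over the rest. Genotypes were compared with edgeR 4.0.16 (filterByExpr, TMM, quasi-likelihood test, Benjamini-Hochberg over all genes tested, 0.05), and the difference between classes with the mouse as a block. DESeq2 1.42.0, other scalings, filters and splits, and leaving out mice were alternatives. The fits were tested on simulated data. Nothing in the labels says how the mice were housed or processed together, so p-values measure the spread between these 6 libraries. Intervals on shares of cells are exact (Clopper-Pearson, 95%), and limits for a count of 0 are 3 counts over the number of cells.

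The members, lists and tests were chosen with earlier results of these data known. Named genes were the members, wider-list genes called in a class (at most 10), and in microglia and perivascular macrophages the 5 wider-list genes of largest change with an unadjusted p under 0.05 and no overlap. Genes named outside this rule were chosen after their values were seen.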

Additional observations from a re-analysis of the deposited data

Results flagged for a closer look

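For 5 lysosomal genes the effect of the genotype differed between both kinds of microglia, by the edgeR test of the difference itself (low-ribosomal minus high-ribosomal, log2 scale). These were the members Ctsd (-1.18, adjusted p = 0.0244), Cd68 (-1.11, adjusted p = 0.0253), Ctsb (-1.03, adjusted p = 0.0303) and Ctsz (-1.17, adjusted p = 0.0309), and from the wider list Hexa (-1.17 ± 0.22, adjusted p = 0.0158), a subunit of beta-hexosaminidase. Hexa was at 561, 533 and 553.5 CPM in WT and 869, 1050 and 849 CPM in ArcSwe mice in high-ribosomal microglia, and at 458, 482 and 464.5 CPM against 292, 356 and 414 CPM in low-ribosomal microglia. The genotypes were apart in both classes, above in the first as for 8.18% of all genes and below in the second as for 11.4%, and Hexa was called in neither class alone (edgeR adjusted p = 0.0501 and 0.649). No gene of the wider list was called for the difference without WT replicate 1, WT replicate 2 or ArcSwe replicate 1.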

How the results depend on the processing

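The alternative that leaves out both replicates numbered 3, whose high-ribosomal microglia had the lowest depth, was chosen after seeing the data. In high-ribosomal microglia 330 genes were called, 1006 with no filter on low counts, 511 with the ribosomal split by cluster, 996 without both replicates 3, and 60 to 1209 with 1 mouse left out. In low-ribosomal microglia 11 were called, 23 by DESeq2, 132 with no filter, 6 with the stricter cell filter, 4 with the split by cluster, 2 with a limit of 5%, 545 without both replicates 3 and 3 to 57 with 1 mouse left out. Without both replicates 3, Ctsl, Ctss, Ctsz and Lamp1 were called lower there, at -0.70, -0.50, -0.73 and -0.79. Perivascular macrophages gave 1 call by DESeq2, with no filter or with the stricter cell filter, and 2 to 5 with 1 mouse left out. Endothelial cells gave 17 by DESeq2 and 2 without both replicates 3, mural cells 88 with no filter. The difference between microglia and endothelial cells gave 55, 569 with no filter and 12 to 980 with 1 mouse left out. That between both microglial classes gave 29, 67 with no filter, 743 without both replicates 3 and 2 to 608 with 1 mouse left out.

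Small log2 fold changes changed sign. In low-ribosomal microglia Ctsb came to -0.0003 with the split by cluster and -0.035 without both replicates 3. At clustering resolution 2, Ctss came to 0.049, Ctsl to 0.29, Ctsz to 0.031 and Cd68 to 0.31, and at a limit of 5% Ctss to 0.023 and Ctsl to 0.27. Cd68 came to 0.0025 by DESeq2, 0.0073 with RLE factors and 0.0041 with the replicate block. Without both replicates 3, Ctsz and Lamp1 came to -0.03 and -0.04 in endothelial cells, and Ctsz and Lyz2 to -0.18 and -0.37 in mural cells. The causes were not tested.

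With 1 mouse or both replicates 3 left out, log2 fold changes that changed sign ranged as follows. In low-ribosomal microglia they ran from -0.035 to 0.32 for Ctsb, -0.47 to 0.14 for Cd68, -0.70 to 0.25 for Ctsl, -0.50 to 0.061 for Ctss and -0.73 to 0.041 for Ctsz. In endothelial cells they ran from -0.036 to 0.25 for Ctsb, -0.12 to 0.64 for Ctsd, -0.13 to 1.84 for Ctss, -0.045 to 0.30 for Ctsz, -0.058 to 0.10 for Lamp1 and -0.21 to 1.49 for Lyz2. In mural cells they ran from -1.01 to 0.74 for Cd68, -0.025 to 0.33 for Ctsb, -0.21 to 0.58 for Ctsd, -0.031 to 0.08 for Ctsl, -0.36 to 1.69 for Ctss, -0.18 to 0.21 for Ctsz, -0.13 to 0.068 for Lamp1 and -0.82 to 1.27 for Lyz2. In perivascular macrophages they ran from -0.17 to 0.28 for Ctsb, -0.22 to 1.08 for Ctsd, -0.68 to 0.71 for Ctsl, -0.89 to 0.035 for Ctss and -0.69 to 0.35 for Lyz2. The difference between microglia and endothelial cells ran from -1.08 to 0.47 for Ctss and -6.02 to 7.79 for Gpnmb, and that between both microglial classes from -1.98 to 0.18 for Lyz2.

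Replicate numbers were not taken to pair the mice (correlations of same-numbered mice in high-ribosomal microglia 0.014, 0.129 and 0.295). Both replicates numbered 3 also correlated at 0.33 in endothelial and 0.336 in mural cells, and at 0.0249 in low-ribosomal microglia. A replicate 3 and a mouse of another number and genotype correlated at -0.279 to 0.0281 over these classes. The correlations are of deviations from the genotype mean, which cancel out within a genotype. A positive value between both replicates 3 thus lowers their values with other mice, and the contrast adds no separate information. No label says whether number 3 marks a shared batch, and this was not tested. The replicate block gave 450 calls in high-ribosomal and 10 in low-ribosomal microglia and 0 in endothelial and mural cells, and 7 members were then called in high-ribosomal microglia, with Ctsd (adjusted p = 0.0286) and Lyz2 (1.56, adjusted p = 0.0374) added. No paired analysis was possible because only number 3 is shared in perivascular macrophages. The order of the class means changed with the stricter cell filter for Ctsz, Grn and Gpnmb, with 0 neighbouring pairs called.

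The ratio between cells with and without a DAM transcript, averaged over the mice with at least 20 such cells (2 ArcSwe mice), came with all UMIs, where 5 mice of both genotypes qualify, to 2.27 for Ctsb, 1.85 for Ctsd, 1.25 for Ctss, 1.5 for Ctsl, 6.73 for Lyz2, 1.91 for Cd68, 1.40 for Lamp1 and 1.52 for Grn. With at least 2 of the call genes it was 2.13 for Ctsb, 1.99 for Ctsd, 1.68 for Ctsz, 2.74 for Lyz2, 1.84 for Cd68 and 1.63 for Lamp1. That setting compares with all other cells, among them those with 1 call gene, so both groups differ from the main setting. The means with all UMIs mix the genotypes. For Ctsb the ratios were then 1.46, 1.58 and 1.93 in WT replicates 1 to 3 and 2.97 and 3.40 in ArcSwe replicates 1 and 3. Those of Lyz2 were 1.79, 2.06 and 16.2 in the same WT mice and 7.49 and 6.14 in the same ArcSwe mice. Precision is limited by cell number in perivascular macrophages (6 to 15 cells per mouse) and in ArcSwe replicate 2 (13 high-ribosomal microglia), and by few UMIs for Gpnmb.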
